A study of Homo sapiens with 12 samples.

Results

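The cancer-testis gene families were taken as every probe of the array whose gene symbol starts with MAGEA, MAGEB, MAGEC, GAGE, XAGE, PAGE, SPANX, SSX, CTAG, VCX, CSAG, CT45 or CT47. This gave 162 of 47323 probes, for 88 genes. By family there were 27 MAGEA, 20 SSX, 17 CTAG, 16 SPANX, 13 GAGE, 13 VCX, 12 MAGEB, 11 CT45, 8 MAGEC, 8 PAGE, 7 CT47, 7 XAGE and 3 CSAG probes. By RefSeq's GRCh38.p14 annotation, 148 of the probes belonged to genes of chromosome X and 11 to genes of other chromosomes, and 3 had no position. Of the 162, 11 probes of 7 genes share only the letters with the SSX or CTAG family. These are SSX2IP, which encodes a centrosome-associated protein that binds SSX2, and the CTAGE genes.

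RNA came from HEK293T, a human embryonic kidney line transformed with adenovirus DNA that also carries the SV40 large T antigen. The cells were harvested 48 h after transient transfection with plasmids, and Illumina bead arrays were run on 2 independently transfected replicates in each of 6 groups, 12 arrays in all. The groups were labelled Control (empty vector), GADD45a, ING1b, GADD45a+ING1b, ING1bΔPHD (ING1b without its PHD domain) and GADD45a+ING1bΔPHD. All cells, including the controls, were transfected. The labels give neither a measure of the transfected share of cells nor of the plasmid proteins, so a rise in few cells and a small rise in many cannot be told apart.

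Cancer-testis genes are active in male germ cells and placenta and are silent in most somatic tissues, where methylation of their promoters is one layer of the silencing. They are switched on in many tumours and by inhibitors of DNA methylation, and most lie on the X chromosome in clusters of near-identical copies. GADD45a is a stress-induced protein that has been linked to removal of DNA methylation, and ING1b is a chromatin protein whose PHD finger binds histone H3 trimethylated at lysine 4.

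Values of the transfected genes stood partly against the labels. A probe for GADD45A (ILMN_1694075) read between 744 and 1088 scanner units on the 6 arrays labelled without GADD45a and between 128 and 160, not detected, on the 6 arrays labelled with it. It was at least 11.8-fold lower on the arrays labelled GADD45a than on Control arrays (limma adjusted p = 0.000363). A second GADD45A probe (ILMN_2052208) was detected on all 12 arrays and differed by -0.53 on the log2 scale in the same comparison, without passing (adjusted p = 0.21). The 1 detected ING1 probe differed from Control by 0.30 on the log2 scale on the arrays labelled ING1b (adjusted p = 0.691). Whether these probes read the plasmid messages was not tested. All groups are therefore named as labelled, and if the labels with and without GADD45a were exchanged, each group would trade places with its partner. ING1b against Control would then read as GADD45a+ING1b against GADD45a, and the signs of GADD45a against Control and of GADD45a+ING1b against ING1b would turn. Of 7 markers of HEK cells, 5 (CDH2, KRT18, NEFL, NEFM, VIM) were detected on all 12 arrays, KRT8 on 11 and PAX2 on none. Of 6 germ cell markers 1, TNP1, was detected, on 1 array. None of 3 blood markers was detected, and COL1A1 was the fibroblast marker seen of 3. Of the hepatocyte genes, 1 ALB probe (ILMN_1782939) was detected on all 12 arrays, at 162 to 299. A second ALB probe (ILMN_1682763) and the APOA2 probe were detected on none.

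The members that changed belonged to the SPANX and VCX families, so their promoters are shown first. SPANX genes encode small nuclear proteins of postmeiotic spermatids, and VCX genes encode highly charged germ cell proteins that differ in the number of a short C-terminal repeat. Each sequence is RefSeq's window in GRCh38.p14 from 250 bases before to 50 bases after an annotated start, 5′ to 3′ on the gene's strand. The windows of VCX (chrX:7842921-7843220, plus strand), SPANXA2 (chrX:141589458-141589757, plus), SPANXB1 (chrX:141002344-141002643, plus) and SPANXC (chrX:141242468-141242767, minus) are set together because they share the 3 runs in capitals, TGTCACCCC, GCTTTGTGA and CCATTGGCTGGG, in this order. The VCX window lies downstream of the start of the gene as the RefSeq gene table gives it.
VCX: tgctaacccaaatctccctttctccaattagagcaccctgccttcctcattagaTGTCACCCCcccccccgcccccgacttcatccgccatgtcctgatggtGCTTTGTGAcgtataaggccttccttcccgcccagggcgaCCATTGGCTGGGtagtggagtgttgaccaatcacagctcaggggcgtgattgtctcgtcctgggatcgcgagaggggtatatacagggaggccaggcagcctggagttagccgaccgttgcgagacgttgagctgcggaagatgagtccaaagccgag
SPANXA2: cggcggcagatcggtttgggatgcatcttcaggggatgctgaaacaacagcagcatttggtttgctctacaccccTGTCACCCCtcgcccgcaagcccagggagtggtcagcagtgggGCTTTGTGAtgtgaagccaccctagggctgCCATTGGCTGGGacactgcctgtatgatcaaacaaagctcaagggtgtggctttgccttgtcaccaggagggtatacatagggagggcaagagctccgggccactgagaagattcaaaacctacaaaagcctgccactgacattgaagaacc
SPANXB1: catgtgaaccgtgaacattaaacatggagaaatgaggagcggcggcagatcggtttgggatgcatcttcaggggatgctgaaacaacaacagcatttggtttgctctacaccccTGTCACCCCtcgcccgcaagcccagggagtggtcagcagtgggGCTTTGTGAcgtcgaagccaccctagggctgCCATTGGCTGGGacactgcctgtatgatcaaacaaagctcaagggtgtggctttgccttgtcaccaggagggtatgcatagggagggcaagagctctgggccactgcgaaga
SPANXC: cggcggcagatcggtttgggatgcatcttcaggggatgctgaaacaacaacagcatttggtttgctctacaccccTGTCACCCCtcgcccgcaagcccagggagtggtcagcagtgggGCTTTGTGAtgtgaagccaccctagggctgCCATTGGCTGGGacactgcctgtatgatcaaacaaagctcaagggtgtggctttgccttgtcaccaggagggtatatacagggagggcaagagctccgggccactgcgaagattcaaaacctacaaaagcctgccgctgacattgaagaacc

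The windows of the other 3 VCX genes lie at the start of the gene as the RefSeq gene table gives it, so they are not at a like position to that of VCX. VCX2 (chrX:8171218-8171517, minus), VCX3A (chrX:6535069-6535368, minus) and VCX3B (chrX:8464580-8464879, plus) share 1 run of 137 bases, in capitals, which shows how alike these copies are.
VCX2: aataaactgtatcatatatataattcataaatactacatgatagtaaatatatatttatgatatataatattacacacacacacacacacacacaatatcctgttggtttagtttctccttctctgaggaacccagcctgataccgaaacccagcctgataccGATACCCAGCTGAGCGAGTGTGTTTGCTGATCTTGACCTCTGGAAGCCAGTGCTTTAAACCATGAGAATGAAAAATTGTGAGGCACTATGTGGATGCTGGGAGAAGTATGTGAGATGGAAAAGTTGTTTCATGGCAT
VCX3A: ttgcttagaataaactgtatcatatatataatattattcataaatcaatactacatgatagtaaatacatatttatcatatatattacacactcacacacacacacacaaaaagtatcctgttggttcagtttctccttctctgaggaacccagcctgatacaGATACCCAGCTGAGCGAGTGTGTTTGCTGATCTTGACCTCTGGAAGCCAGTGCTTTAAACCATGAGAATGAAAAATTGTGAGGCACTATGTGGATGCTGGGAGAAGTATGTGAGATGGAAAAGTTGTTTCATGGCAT
VCX3B: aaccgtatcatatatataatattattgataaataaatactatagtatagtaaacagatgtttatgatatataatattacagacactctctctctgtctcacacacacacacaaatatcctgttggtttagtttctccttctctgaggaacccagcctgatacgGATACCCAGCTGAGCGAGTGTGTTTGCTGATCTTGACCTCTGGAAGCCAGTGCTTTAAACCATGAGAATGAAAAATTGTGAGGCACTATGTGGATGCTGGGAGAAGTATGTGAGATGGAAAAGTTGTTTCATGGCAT

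Aligned over 300 bases, the SPANXA1 and SPANXA2 windows were identical, SPANXA2 and SPANXC had 295 identical bases and SPANXA2 and SPANXB1 255. VCX and SPANXC had 195, VCX and SPANXA2 188 and VCX and SPANXB1 182. The windows of SPANXA1, SPANXA2, SPANXB1 and SPANXC had 169 to 182 with those of VCX2, VCX3A and VCX3B. The likeness of VCX to the SPANX windows was thus at most slightly above that. VCX and VCX2 had 173, VCX2 and VCX3A 275 and VCX2 and VCX3B 268. The VCX and VCX2 windows lie at different positions of their genes, so the 173 does not measure how alike these genes are. The runs are all those of at least 9 bases common to the VCX, SPANXA2, SPANXB1 and SPANXC windows, so their presence there follows from the choice. They do not overlap one another. Searched on both strands of 35116 RefSeq promoter windows of the same length, TGTCACCCC was found in 113 (0.322%), GCTTTGTGA in 189 (0.538%) and CCATTGGCTGGG in 28 (0.0797%). All 3 occurred together in 7 windows, those of SPANXA1, SPANXA2, SPANXB1, SPANXC, SPANXN3, SPANXN5 and VCX. None of the 5 SPANXN probes was detected on any array. A match describes the letters of a window and is no sign of a bound factor.

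A probe was called detected on an array when its deposited detection p was under 0.01, a threshold that about 1% of negative control beads pass by construction. Of the 162 cancer-testis probes, the number detected on both arrays of a group was 6 (3.70%) for ING1b, 5 (3.09%) for GADD45a+ING1b and 3 (1.85%) for Control. It was 1 (0.617%) for each of the groups labelled GADD45a, ING1bΔPHD and GADD45a+ING1bΔPHD. Over all probes of the array the share detected on both arrays was 31.3% for ING1b, 30.2% for GADD45a+ING1b, 31.4% for Control, 30.8% for GADD45a, 29.4% for ING1bΔPHD and 29.8% for GADD45a+ING1bΔPHD. The Control probes were XAGE1B, SPANXB1 and SSX2IP, and SSX2IP was the 1 member detected on all 12 arrays. In ING1b, SPANXA2, SPANXC and VCX3A joined these 3. In GADD45a+ING1b, VCX, VCX2, VCX3A and VCX3B stood beside SSX2IP, while no SPANX probe and not XAGE1B was detected there. In the 3 groups GADD45a, ING1bΔPHD and GADD45a+ING1bΔPHD, SSX2IP was the 1 probe on both arrays.

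Array by array, Control held 3 and 3 detected members, GADD45a 2 and 4, ING1b 8 and 9, GADD45a+ING1b 5 and 6, ING1bΔPHD 1 and 3, and GADD45a+ING1bΔPHD 1 and 6. The ING1b arrays thus lay above all other arrays, and the GADD45a+ING1bΔPHD arrays overlapped every other group except ING1b. Replicates of that last group differed through SSX4, MAGEA9B, VCX3A, GAGE12H and XAGE1B, each detected on replicate 2 alone. Over all arrays 51 of 1944 probe readings (2.62%) were detected, and 39 of 1812 (2.15%) without SSX2IP and the CTAGE genes, compared with 32.9% of the readings of all probes. In total 146 of the 162 probes were detected on no array, 4 on exactly 1 (MAGEA1, MAGEA9B, MAGEC2 and SSX4) and 12 on 2 or more.

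These 12 probes entered the tests among 17814 detected on at least 2 arrays. SPANXA2 and SPANXC entered through the ING1b arrays alone and VCX3B through the GADD45a+ING1b arrays alone, so these had to be highest there. VCX and VCX2 were detected on both GADD45a+ING1b arrays and on 1 ING1b array, and would not have entered without the GADD45a+ING1b arrays. This limit holds in every comparison with these groups, and the number of members passing is given as a description. The paralogs are so similar that a probe named for 1 copy may read another, so SPANXA1 and SPANXA2, and the VCX copies, are uncertain as to which copy was transcribed.

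The 3 detected SPANX probes were highest on the ING1b arrays. The SPANXA2 probe (ILMN_1653415, gene at chrX:141589708-141590762) read 139 and 113 on Control arrays, 129 and 121 on GADD45a, 237 and 224 on ING1b, 138 and 136 on GADD45a+ING1b, 115 and 133 on ING1bΔPHD and 130 and 119 on GADD45a+ING1bΔPHD. Both ING1b arrays lay above the other 10, none of them detected. Among these the GADD45a+ING1b arrays lay above both arrays of the other groups except Control, which they overlapped in scanner intensity. ING1b was higher than Control by 1.89 on the log2 scale of normalized intensity (SE 0.20, limma adjusted p = 0.00336), at least 2.04-fold. Means were 6.81 ± 0.02 (SD, n = 2) in ING1b and 4.92 ± 0.29 (SD, n = 2) in Control. This was the 1 of 12 tested members (of 162 in all) passing in that comparison, in which 0.298% of all tested probes passed (0.253% higher). Without ING1b replicate 1 the adjusted p was 0.0622, and without background correction the difference was 0.73.

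SPANXC (ILMN_2198300, chrX:141241463-141242517) read 137 and 114 on Control arrays, 124 and 111 on GADD45a, 204 and 167 on ING1b, 113 and 124 on GADD45a+ING1b, 127 and 98 on ING1bΔPHD and 117 and 108 on GADD45a+ING1bΔPHD. The ING1b arrays again stood above the other 10. The difference from Control was 1.24 (SE 0.23), which did not pass (adjusted p = 0.0794) and passed with the replicate number as a block (adjusted p = 0.0302, with 0.539% of all probes passing). SPANXB1 (ILMN_2211030, chrX:141002594-141003706) was the SPANX probe already detected in Control, at 166 and 177. It read 123 and 130 on GADD45a arrays, 213 and 190 on ING1b, 153 and 146 on GADD45a+ING1b, 134 and 138 on ING1bΔPHD and 128 and 139 on GADD45a+ING1bΔPHD. Its ING1b arrays were the highest and its Control arrays next, without overlap with the remaining 8. ING1b differed from Control by 0.46 (adjusted p = 0.524, block 0.267). GADD45a differed from Control by -0.96 (SE 0.19, adjusted p = 0.0747), at least 1.09-fold lower, which passed with the block (adjusted p = 0.0334). For the arrays labelled GADD45a+ING1bΔPHD, -0.78 had an adjusted p of 0.119, or 0.0485 with the block.

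Other SPANX probes were dim on every array. In normalized intensity both ING1b arrays lay above the other 10 for 7 of the 16 SPANX probes: SPANXA2, SPANXB1 (the detected probe and ILMN_2211032), SPANXC, SPANXA1 (ILMN_2233319) and SPANXD (ILMN_1732781 and ILMN_2132100). For SPANXA1 the ING1b arrays read 166 and 152, and the other 10 between 107 and 138, none detected. For SPANXD the probe ILMN_1732781 read 153 and 149 in ING1b against 108 to 143 elsewhere. Over all 162 members this held for 9 probes, the other two being GAGE12C and MAGEA10, and over all probes of the array for 1.59%. The 5 SPANXN probes, of a more distant branch of the family, read 87 to 143. None had this order in normalized intensity, though in scanner intensity both ING1b arrays of SPANXN4 (122 and 118) lay above the other 10 (up to 116). Over the 16 SPANX probes, with no filter, the median log2 difference of ING1b from Control was 0.24 and 12 lay above 0, and for GADD45a+ING1b it was -0.02 with 8 above 0.

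The 4 detected VCX probes were highest on the GADD45a+ING1b arrays, with ING1b between these and Control. VCX3A (ILMN_2366642, chrX:6533618-6535118) read 128 and 137 on Control arrays, 145 and 138 on GADD45a, 184 and 201 on ING1b, 278 and 223 on GADD45a+ING1b, 144 and 151 on ING1bΔPHD and 152 and 163 on GADD45a+ING1bΔPHD. Both GADD45a+ING1b arrays exceeded both ING1b arrays, which exceeded all the rest. The difference of GADD45a+ING1b from Control was 2.31 (SE 0.22, adjusted p = 0.00095), at least 3.05-fold. For ING1b it was 1.22 (SE 0.22, adjusted p = 0.0804), which passed with the block (adjusted p = 0.0493).

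VCX3B (ILMN_2166716, chrX:8464830-8466510) read 107 and 115 on Control arrays, 146 and 127 on GADD45a, 156 and 151 on ING1b, 259 and 212 on GADD45a+ING1b, 145 and 120 on ING1bΔPHD and 140 and 121 on GADD45a+ING1bΔPHD. GADD45a+ING1b stood alone above the detection limit. It was higher than Control by 2.57 (SE 0.24, adjusted p = 0.000845), at least 2.73-fold, and ING1b differed from Control by 0.85 (adjusted p = 0.349). VCX (ILMN_1684886, chrX:7842262-7844143) read 113 and 112 on Control arrays, 108 and 109 on GADD45a, 151 and 178 on ING1b, 209 and 236 on GADD45a+ING1b, 143 and 110 on ING1bΔPHD and 144 and 121 on GADD45a+ING1bΔPHD. The ING1b arrays lay below GADD45a+ING1b and above the other 8. GADD45a+ING1b was higher than Control by 2.41 (SE 0.30, adjusted p = 0.00446), at least 2.46-fold, and the difference of ING1b was 1.07 (adjusted p = 0.326).

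VCX2 (ILMN_1706028, chrX:8169944-8171267) read 139 and 130 on Control arrays, 129 and 150 on GADD45a, 183 and 160 on ING1b, 186 and 191 on GADD45a+ING1b, 155 and 148 on ING1bΔPHD and 147 and 150 on GADD45a+ING1bΔPHD. Its GADD45a+ING1b arrays were the highest by a small margin. The difference from Control was 1.49 (SE 0.22, adjusted p = 0.0126), at least 1.76-fold, and 0.79 for ING1b (adjusted p = 0.349). The call for VCX2 was lost without Control replicate 2 (adjusted p = 0.102) and without either GADD45a+ING1b replicate (0.064 and 0.0981). Without background correction the differences of VCX, VCX2, VCX3A and VCX3B were 1.01, 0.54, 0.97 and 1.10.

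These 4 of the 12 tested members (of 162 in all) passed in GADD45a+ING1b against Control, where 1.83% of all tested probes passed (1.07% higher). The filter admitted VCX, VCX2 and VCX3B only with the GADD45a+ING1b arrays, so the count cannot be set against that share. The other 9 VCX probes (6 for VCX2, 2 for VCX3A and 1 for VCX3B) were detected on no array. Over all 13 VCX probes, with no filter, the median difference of GADD45a+ING1b from Control was 0.12 and 11 lay above 0, and for ING1b it was 0.28 with 10 above 0. It was 0.26 for GADD45a+ING1bΔPHD with 10 above 0, 0.11 for ING1bΔPHD with 8 and 0.03 for GADD45a with 7. Both GADD45a+ING1b arrays lay above the other 10 for VCX, VCX2, VCX3A, VCX3B and MAGEB4 among the members, and for 2.24% of all probes.

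When GADD45a was added to ING1b, by the labels, 1 SPANX probe fell and 1 VCX probe rose. SPANXA2 had entered the tests through the ING1b arrays alone and VCX3B through the GADD45a+ING1b arrays alone. The direction of each was therefore fixed by the detection filter, and both differences are given as a description. In GADD45a+ING1b against ING1b, SPANXA2 was lower by 1.52 on the log2 scale (log2 difference -1.52, SE 0.20, adjusted p = 0.0156), at least 1.86-fold, and VCX3B was higher by 1.72 (SE 0.24, adjusted p = 0.0255), at least 2.64-fold. Across all tested probes 0.202% passed there, 0.157% lower and 0.0449% higher. SPANXC differed by -1.31 (adjusted p = 0.0714, or 0.0286 with the block, where 0.399% of probes passed), SPANXB1 by -0.76 (adjusted p = 0.302), VCX by 1.34 (adjusted p = 0.19), VCX3A by 1.10 (adjusted p = 0.146) and VCX2 by 0.70 (adjusted p = 0.483). Both calls were lost when any 1 of the 4 arrays compared was left out, with adjusted p of 0.118 to 0.17 for SPANXA2 and 0.0922 to 0.242 for VCX3B. Without background correction the SPANXA2 difference was -0.57 (adjusted p = 0.0674) and that of VCX3B 0.72.

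Whether ING1b acted differently with GADD45a than without it was also tested as an interaction over Control, GADD45a, ING1b and GADD45a+ING1b. No member passed with limma, and 0% of all tested probes did. An unadjusted p under 0.05 was found for 5 of the 12 tested members (SPANXA2, SPANXC, VCX, VCX3A, VCX3B) and 796 of all 17814 tested probes (4.47%). SPANXA2 and SPANXC had entered through the ING1b arrays alone, and VCX and VCX3B would not have entered without the GADD45a+ING1b arrays. The count among members therefore cannot be set against that share. For SPANXA2 the interaction was -1.57 (SE 0.28, unadjusted p = 0.000217, adjusted p = 0.552), for VCX 1.35 (adjusted p = 0.994) and for VCX3B 1.10 (adjusted p = 1.00).

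When ING1b was added to GADD45a, again by the labels, 3 of the 13 VCX probes, of which 4 were tested, rose. In GADD45a+ING1b against GADD45a, VCX was higher by 2.42 (SE 0.30, adjusted p = 0.00705), at least 2.37-fold, VCX3A by 1.98 (SE 0.22, adjusted p = 0.00437), at least 2.93-fold, and VCX3B by 1.95 (SE 0.24, adjusted p = 0.00722), at least 2.62-fold. The background was 0.337% of probes (0.281% higher). VCX3B had entered through the GADD45a+ING1b arrays alone, and VCX would not have entered without them. The count of VCX probes therefore cannot be set against that share. VCX2 differed by 1.22 (adjusted p = 0.0696), and SPANXA2, SPANXC and SPANXB1 by 0.32, 0.02 and 0.66 (adjusted p = 0.747, 0.993 and 0.313). Adjusted p was above 0.05 for VCX without GADD45a replicate 1 (0.0748), GADD45a replicate 2 (0.07) or GADD45a+ING1b replicate 2 (0.0716). For VCX3A and VCX3B it was above 0.05 without GADD45a replicate 2 (0.0595 and 0.081) and without GADD45a+ING1b replicate 1 (0.0567 and 0.0881), and without background correction the differences of VCX, VCX3A and VCX3B were 1.02, 0.84 and 0.80.

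The PHD finger was examined by comparing full-length ING1b with ING1bΔPHD. Without GADD45a, 3 SPANX probes passed: SPANXA2 was higher with full-length ING1b by 1.92 (SE 0.20, adjusted p = 0.00332), at least 1.71-fold, SPANXC by 1.46 (SE 0.23, adjusted p = 0.0302), at least 1.08-fold, and SPANXB1 by 1.31 (SE 0.19, adjusted p = 0.0228), at least 1.31-fold. The background was 0.286% of probes (0.247% higher). SPANXA2 and SPANXC had entered the tests through the ING1b arrays alone, so their direction was fixed by the detection filter. The count therefore cannot be set against that share. VCX, VCX2, VCX3A and VCX3B differed by 0.81, 0.40, 0.89 and 0.47 there, none passing. Leaving out ING1b replicate 1 lost the SPANXA2 call (adjusted p = 0.0575), leaving out any of the 4 arrays compared lost the SPANXB1 call (0.116 to 0.282), and the SPANXC call was lost in 12 of 20 alternatives, among them every left-out array except those of Control and GADD45a+ING1b. Without background correction the differences were 0.75 for SPANXA2, 0.61 for SPANXC (adjusted p = 0.097) and 0.46 for SPANXB1 (adjusted p = 0.152). The SPANXC call was also lost with no detection filter.

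With GADD45a, VCX probes passed, but the difference from the comparison without GADD45a passed for no member. VCX3B was higher with full-length ING1b by 2.13 (SE 0.24, adjusted p = 0.00405), at least 2.39-fold, VCX by 1.91 (SE 0.30, adjusted p = 0.0285), at least 2.16-fold, and VCX3A by 1.55 (SE 0.22, adjusted p = 0.0186), 2.93-fold, where 1 of the 2 GADD45a+ING1bΔPHD arrays was detected. The background was 0.404% of probes (0.337% higher). VCX3B had entered the tests through the GADD45a+ING1b arrays alone, and VCX would not have entered without them. This count therefore cannot be set against that share. VCX2 differed by 1.01 (adjusted p = 0.14), and SPANXA2, SPANXC and SPANXB1 by 0.35, 0.12 and 0.48, none passing. Adjusted p for VCX was 0.0555 to 0.231 without any array of Control, GADD45a or either group compared, that for VCX3A 0.0531 to 0.17 without any array compared, and that for VCX3B 0.056 without GADD45a+ING1b replicate 1. Without background correction the differences of VCX, VCX3A and VCX3B were 0.77, 0.70 and 0.87. The VCX call was also lost with no detection filter, and the VCX and VCX3A calls with the authors' values.

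Averaged over both GADD45a states, 5 members were higher with full-length ING1b than with ING1bΔPHD: SPANXA2 by 1.13 (SE 0.14, adjusted p = 0.00381), SPANXB1 by 0.90 (SE 0.14, adjusted p = 0.0151), VCX by 1.36 (SE 0.21, adjusted p = 0.0157), VCX3A by 1.22 (SE 0.16, adjusted p = 0.00568) and VCX3B by 1.30 (SE 0.17, adjusted p = 0.00624). The background was 0.831% (0.662% higher). SPANXA2, VCX and VCX3B were detected on arrays with full-length ING1b alone, so the filter admitted them only because they were high there. Here too the count cannot be set against that share. SPANXC differed by 0.79 (adjusted p = 0.0577, or 0.022 with the block, where 2.16% of probes passed) and VCX2 by 0.70 (adjusted p = 0.0908). The difference between the PHD comparison with and without GADD45a passed for no member and for 0% of probes: SPANXA2 -1.58 (unadjusted p = 0.000207, adjusted p = 0.471) and VCX3B 1.66 (unadjusted p = 0.000705, adjusted p = 1.00). The VCX call of the averaged comparison was lost without replicate 2 of ING1b, GADD45a+ING1b, ING1bΔPHD or GADD45a+ING1bΔPHD (adjusted p 0.0566 to 0.0724), and the SPANXB1 call in 7 of 20 alternatives (0.0536 to 0.0883), 5 of them with replicate 1 of ING1b, ING1bΔPHD or GADD45a+ING1bΔPHD or either GADD45a+ING1b array left out. Without background correction the differences of SPANXA2, SPANXB1, VCX, VCX3A and VCX3B were 0.44, 0.31, 0.54, 0.51 and 0.52.

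None of the 12 tested members, of 162 in all, passed in GADD45a, ING1bΔPHD or GADD45a+ING1bΔPHD against Control. Among all tested probes 0.5%, 0% and 0.168% passed in limma, and with the block 2.26%, 0% and 2.48%. At an unadjusted p under 0.05 there were 3 of the 12 tested members in GADD45a (SPANXB1, SSX2IP, VCX3B), 1 in ING1bΔPHD (SPANXB1) and 4 in GADD45a+ING1bΔPHD (SPANXB1, SSX2IP, VCX3A, XAGE1B). Of all tested probes 14.3%, 10.5% and 15.4% had such a p in these comparisons. ING1bΔPHD differed from Control by -0.04 for SPANXA2, -0.22 for SPANXC, -0.85 for SPANXB1 (adjusted p = 0.318), 0.26 for VCX and 0.33 for VCX3A.

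The remaining tested members did not pass in any comparison. XAGE1B (ILMN_1678116) read 191 and 174 in Control, 142 and 157 in GADD45a, 171 and 170 in ING1b, 147 and 146 in GADD45a+ING1b, 164 and 173 in ING1bΔPHD and 133 and 162 in GADD45a+ING1bΔPHD. Control arrays were highest, and the differences from Control were -0.29 in ING1b (adjusted p = 0.814) and -0.58 in GADD45a+ING1b (adjusted p = 0.311). CTAG1B (ILMN_1719146), which encodes the tumour antigen NY-ESO-1, read 126 and 197 on ING1b arrays, 126 and 156 on GADD45a+ING1b arrays and 111 to 150 elsewhere, so its 2 detected readings each had an undetected replicate. GAGE12H (ILMN_3244090) was detected on ING1b replicate 2 at 170 and GADD45a+ING1bΔPHD replicate 2 at 163. SSX3 (ILMN_1690971), of a family of nuclear repressors, was detected on 1 array each of GADD45a, ING1b and ING1bΔPHD at 158, 175 and 168. SSX2IP (ILMN_1720844), on chromosome 1, read 352 and 379 in Control and 243 to 326 elsewhere, with no comparison passing.

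Pooled over all arrays, the median reading of every family, SPANX and VCX included, was below the median of all probes on any array. Single probes such as XAGE1B and SSX2IP stood above it. Within groups, the VCX median was 136 in ING1b, where the all-probe medians of the arrays were 140 and 135. In GADD45a+ING1b it was 131, where they were 133 and 129. The CSAG median in ING1bΔPHD was 137, where they were 139 and 134. MAGEA proteins bind RING-type ubiquitin ligases, and the 27 MAGEA probes read 87.7 to 166 with a median of 121. The medians of the MAGEB, MAGEC, GAGE, XAGE, PAGE, CT45, CT47, CTAG, CSAG and SSX probes lay between 109 and 124, with 114 for SPANX and 122 for VCX, against 129 to 140 for the median of all probes on an array. Detected probes started at 152 to 181. MAGEB2, a nucleolar MAGE protein gene, had 2 probes. ILMN_1688335 read 116 and 129 in Control, 152 and 120 in ING1b, 149 and 127 in GADD45a+ING1b and 116 to 151 elsewhere, and ILMN_2078430 read 93.8 to 116. Neither was detected on any array, so a change of MAGEB2 was not detectable. Over all 162 members, with no filter, the median log2 difference from Control was 0.00 in ING1b with 81 above 0, and 0.02 in GADD45a+ING1b with 93 above 0, compared with -0.01 for all probes in the latter.

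Genes of related function were read for comparison. Of 30 other germline genes on the array, 9 probes of 6 genes were tested and 1 passed in 1 comparison, where 1.83% of all tested probes passed: LDHC (ILMN_2326324), the testis form of lactate dehydrogenase, read 341 and 378 in Control, 250 and 248 in GADD45a, 323 and 332 in ING1b, 222 and 219 in GADD45a+ING1b, 253 and 258 in ING1bΔPHD and 211 and 221 in GADD45a+ING1bΔPHD. It was thus also low in other groups, and the call was in GADD45a+ING1b, at a difference from Control of -0.77 (SE 0.16, adjusted p = 0.0493), or 1.71-fold lower. A second tested LDHC probe had an unadjusted p under 0.05 in GADD45a, ING1bΔPHD and GADD45a+ING1bΔPHD against Control. It had no such p in GADD45a+ING1b against Control. The median difference of the 9 probes was -0.15 there, against -0.02 over all tested probes. None of the 16 tested probes of somatic MAGE genes, which are not confined to the germline, passed in limma in any of the 12 comparisons, with 18 of 192 probe results at an unadjusted p under 0.05 (9.38%). None of the 23 tested probes of DNA methylation regulators and MAGE partners passed either, with 27 of 276 at an unadjusted p under 0.05 (9.78%). The median differences of these MAGE and regulator probes in GADD45a+ING1b against Control were -0.19 and 0.01. Such a p was found for 29 of 108 results of the other germline genes (26.9%) and 20680 of 213768 over all tested probes (9.67%). Those 29 all came from probes of LDHC, TDRD1 and TKTL1. The 12 comparisons share arrays, so the results of a probe are not independent of one another. Of other chromosome X probes 533 were tested, of which 0.563% passed in ING1b and 2.44% in GADD45a+ING1b against Control. Within 500000 bases of the VCX cluster 1 of 9 probes of other genes was tested, for PUDP, at -0.47 in GADD45a+ING1b against Control. Beside the SPANX cluster 1 of 4 was tested, for LDOC1, at 0.28 in ING1b against Control. Neither passed.

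The promoter windows of the SPANX genes and of the VCX genes other than VCX itself held few CpG dinucleotides. RefSeq windows were found for 68 member genes, 82 windows in all. The median number of CpG dinucleotides per 300 bases was 14 over 35116 windows and 11.5 over members. It was 6 for the SPANX genes (1 to 9) and 3 for the VCX genes, where VCX had 16, VCX2 3, VCX3A 1 and VCX3B 3. The VCX window lies downstream of the gene's start in the RefSeq gene table and those of its copies at it. The count for VCX is therefore not of a like position. By family the medians were 18 for CSAG, 14 for MAGEA, 13 for GAGE, 12 for XAGE, 10 for MAGEC and PAGE, 9.5 for MAGEB and for SSX with SSX2IP, and 8 for the 1 CT45 window. The 4 windows of the CTAG letters all belong to CTAGE genes. MAGEB2, undetected throughout, had 21. The cyclic AMP response motif core TGACGT occurred in 2803 windows (7.98%) and in those of 13 member genes, among them VCX, SPANXB1, MAGEB2 and 8 MAGEA genes that were not detected on 2 arrays. Methylation of these promoters was not analysed here.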

How the data were processed

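The deposited scanner table holds an average bead intensity per probe and array, which the authors exported with GenomeStudio 2011.1, per the submitters' processing notes, and it was treated as unnormalized because array medians differ. The deposited detection p-value of each probe rises in steps, which implies 770 negative controls. A second intensity table deposited by the authors, with negative values and equal quantiles, was used as an alternative, with values under 16 set to 16. The labels' protocols give biotin-labelled cRNA from total RNA. GenomeStudio's background setting is not stated in those notes.

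Intensities were background-corrected with limma 3.58.1 (nec, controls inferred from the detection p) in R 4.3.3, offset by 16, quantile-normalized and taken to log2. Of 47323 probes, the 17814 that 2 or more of the 12 arrays detected (detection p under 0.01) were tested singly, with 1 mean per group and 12 comparisons, each with Benjamini-Hochberg adjustment over all tested probes, at an adjusted p under 0.05. Where a group was not detected, the fold is a lower bound against each array's detection floor. Replicate differences correlated at 0.228 to 0.435 in all 15 pairs of groups, above a minimum of 0.1, so a block for the replicate number is given where it changes a call. Probes took symbols from the platform annotation (30113 with 1 symbol, 8 with several, 17202 with none), and 159 of 162 members matched RefSeq genes. Probe positions within messages were not used here. Members and lists were chosen with earlier results of these data known. Values per array are given for members that passed or were detected on both arrays of a group, up to 25, and for MAGEB2, GADD45A and ING1. CTAG1B, GAGE12H, SSX3, SPANXA1, SPANXD, PUDP and LDOC1 were added after their values were seen. With 2 arrays a group, their number limits the precision. Alternatives were no background correction, offset 50, median scaling, the authors' values, no detection filter, 1 probe per gene, trend and robust, the block, an adjusted p under 0.01, other detection thresholds and each array left out. On simulated data for ING1b against Control over 17814 probes, 2 of 67 probes changed 1.5-fold were recovered. For 2-fold changes 23 of 67 were found and for 4-fold changes 47 of 66, and 4 unchanged probes were called.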

Additional observations from a re-analysis of the deposited data

How the results depend on the processing

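For the 21 results of single probes that passed, 20 alternatives were run, none reversed a direction, and 6 results passed in all 20: VCX, VCX3A and VCX3B in GADD45a+ING1b against Control, and SPANXA2, VCX3A and VCX3B in the averaged PHD comparison. The number of members passing in GADD45a against Control, 0, was 1 (SPANXB1) with median scaling, 1 with the authors' values and 1 with the replicate block, and 0 to 1 with each array left out, 1 without Control replicate 1. In ING1b against Control it was 1, and 2 with the authors' values, 2 with 1 probe per gene (10645 genes), 3 with the replicate block and 0 to 1 with each array left out. In GADD45a+ING1b against Control it was 4, and 3 to 4 with each array left out. In GADD45a+ING1bΔPHD against Control it was 0, and 1 with the replicate block. In ING1b against ING1bΔPHD it was 3, and 1 without background correction, 1 with trend and robust, 1 at an adjusted p under 0.01 and 0 to 3 with each array left out. In GADD45a+ING1b against GADD45a+ING1bΔPHD it was 3, and 1 with the authors' values, 1 at an adjusted p under 0.01 and 0 to 3 with each array left out. In the averaged PHD comparison it was 5, and 3 at an adjusted p under 0.01 and 3 to 6 with each array left out. In GADD45a+ING1b against ING1b it was 2, and 1 without background correction, 1 with trend and robust, 0 at an adjusted p under 0.01 and 0 to 2 with each array left out. In GADD45a+ING1b against GADD45a it was 3, and 1 to 3 with each array left out. The interaction and the difference of the PHD comparisons had 0 members passing, and 1 each with the authors' values (SPANXA2, where 8 of its 12 readings, all but those of ING1b and GADD45a+ING1b, were at or under the floor of 16 used, so that both differences equal that of GADD45a+ING1b against ING1b). The replicate block changed no call other than those given beside the results. With no detection filter the number of members passing was 2 in ING1b against ING1bΔPHD and 2 in GADD45a+ING1b against GADD45a+ING1bΔPHD.

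The number of members detected on both arrays depends on the threshold. Control had 3, and 5 at a detection p under 0.05 and 1 under 0.005. GADD45a had 1, and 2 under 0.05, 5 if 1 of 2 arrays sufficed and 2 to 4 with each array left out. ING1b had 6, and 13 under 0.05, 3 under 0.005, 11 on at least 1 array and 8 to 9 with each array left out. GADD45a+ING1b had 5, and 8 under 0.05 and 5 to 6 with each array left out. ING1bΔPHD had 1, and 4 under 0.05, 3 on at least 1 array and 1 to 3 with each array left out. GADD45a+ING1bΔPHD had 1, and 5 under 0.05, 6 on at least 1 array and 1 to 6 with each array left out. With 1 array left out a group is judged on its single array, which by construction lets more probes through. Where an array was left out of the tests, its group's lone array was assumed to vary like the others, and apart from fewer arrays the cause of a lost call was not tested. Median scaling moved the median of all probes by -0.21 in GADD45a, -0.27 in GADD45a+ING1b and -0.18 in GADD45a+ING1bΔPHD against Control, and by -0.21 in GADD45a+ING1b against ING1b. Most members lay too near the background for a change to be measured.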
